A study of Mus musculus with 48 samples.

Results

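The activity of 11505 reporter elements was compared between intermediate progenitors (IPC) and neural stem cells (NSC) of the mouse somatosensory cortex at embryonic day (E) 17. The members were all elements with a value in both deposited E17 columns, 11505 of the 11709 elements in the table. They comprised 10517 designed elements of 5 classes and 988 scrambled controls (Scrambled). The classes were NSC (3065 elements), IPC (2949), Mature (2692), E14 (920) and Shadow (891). A further 196 designed elements and 8 Scrambled controls lacked a value in at least 1 of the 2 columns and were left out. The labels and headers do not say what the class names, or the terms asc, desc and unc inside some element names, stand for.

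In a massively parallel reporter assay, many short DNA elements drive reporter transcripts from plasmids, and each element's RNA is set against the plasmid DNA in the same cells. Neural stem cells of the cortical ventricular zone carry the transcription factor Pax6 and give rise to intermediate progenitors, which switch on Tbr2 (Eomes) and divide to make excitatory neurons. The activity of an enhancer depends on which transcription factors a cell contains, so the same element can be active in one of these cell types and silent in the other.

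Embryos of the C57BL/6JRj strain were electroporated in utero with the library at E16, and the cortices were taken 24 h later. Dissociated cells were fixed in formaldehyde, permeabilised, stained for Pax6, Eomes and Tubb3 and sorted. The Tbr2-positive fraction was the IPC group and the Pax6-positive fraction the NSC group, with 2 biological samples each. Every sample gave a DNA and an RNA library, so 8 of the 48 libraries of the series belong to E17. The other libraries come from embryos collected at E13 to E16. The labels name no number of pooled embryos, and the table holds no endogenous transcripts, so the sorted identities could not be checked against marker genes.

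The deposited table pooled the biological samples into 1 value for each element in each E17 cell type. Their spread is therefore unknown, and nothing below was tested across samples. Depth is unknown too. Activity is the log2 of the ratio of the authors' statistic to the column's Scrambled median, plus 0.1 inside the log, minus the Scrambled mean. It was compared as IPC minus NSC, so a positive difference means higher activity in IPC. The columns differed in scale and in spread. The Scrambled median of the raw statistic was 0.339 in the IPC column and 2.37 in the NSC column. Scrambled activities had an SD of 0.99 in the IPC column and 0.67 in the NSC column. Single elements were judged against the central 95% of Scrambled differences, which ran from -2.30 to 2.41 (SD 1.17 over 988 controls). On this scale the limits correspond to 5.30-fold higher activity in IPC and 4.94-fold higher activity in NSC.

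Element names of the E14 and Shadow classes carry mm10 coordinates, and 21 E14 elements overlapped a RefSeq promoter window of 300 bases around a gene's start (GRCm38.p6). Their median difference was 0.05, and 12 of the 21 were higher in IPC. The overlapping stretches of 4 of them are printed below, picked after their values had been seen. They are the single promoter element above the upper limit (4.6% of all designed elements lay there), the single one below the lower limit (3.28% of all), the one at the start of Sox6, and one that the authors' deposited table called active in both cell types. Sequences are from RefSeq, 5′ to 3′ on the strand of the gene, and capitals mark matches to 9 short motifs on either strand.
Gm51750: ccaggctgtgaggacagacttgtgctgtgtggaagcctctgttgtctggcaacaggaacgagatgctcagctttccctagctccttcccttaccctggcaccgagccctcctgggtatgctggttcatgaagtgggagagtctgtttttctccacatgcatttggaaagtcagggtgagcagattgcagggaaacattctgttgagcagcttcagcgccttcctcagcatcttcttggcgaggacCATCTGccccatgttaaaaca
Gm52857: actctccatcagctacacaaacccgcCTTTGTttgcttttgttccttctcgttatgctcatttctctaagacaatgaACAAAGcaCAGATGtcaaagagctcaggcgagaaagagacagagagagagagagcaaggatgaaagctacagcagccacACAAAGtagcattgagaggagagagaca
Sox6: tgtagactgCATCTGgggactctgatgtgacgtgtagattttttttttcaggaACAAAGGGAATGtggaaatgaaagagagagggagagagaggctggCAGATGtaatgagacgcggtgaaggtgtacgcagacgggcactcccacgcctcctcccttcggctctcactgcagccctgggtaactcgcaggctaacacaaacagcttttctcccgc
Arvcf: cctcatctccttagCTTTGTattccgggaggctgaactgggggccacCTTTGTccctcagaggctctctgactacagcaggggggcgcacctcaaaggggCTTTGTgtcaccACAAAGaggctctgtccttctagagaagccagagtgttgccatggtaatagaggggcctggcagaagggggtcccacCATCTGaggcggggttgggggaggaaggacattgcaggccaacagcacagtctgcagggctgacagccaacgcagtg

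The first stretch, chr1:165559130-165559395 on the minus strand, covers the start of the long noncoding RNA gene Gm51750 and lies inside the span of Adcy10, which encodes soluble adenylyl cyclase. Its activity was 2.86 in IPC and -0.35 in NSC, a difference of 3.22. The second, chr6:36903399-36903582 on the plus strand, covers the start of the long noncoding RNA gene Gm52857 inside Dgki, the gene of a diacylglycerol kinase. Here activity was -0.69 in IPC and 1.85 in NSC, a difference of -2.53. At E17 these elements were thus active in 1 cell type each and did not rise above the Scrambled mean in the other. At E13 to E16 the Gm51750 element differed by -2.67, -0.12, 0.43 and -0.53, so its lean to IPC was not steady. The third, chr7:116038695-116038910 on the minus strand, belongs to Sox6, a transcription factor of the SoxD group. It had 2.04 in IPC and 0.30 in NSC, a difference of 1.74, inside the limits, and differed by -0.13, 0.06, -1.19 and 1.20 at E13 to E16. The fourth, chr16:18380560-18380825 on the plus strand, belongs to Arvcf, a catenin of adherens junctions, and had 1.65 in IPC and 1.45 in NSC. Activities belong to whole tested elements. These were chr6:36903399-36903664 for the second stretch and chr7:116038645-116038910 for the third, so bases outside the printed stretches were tested but not searched. Tested elements may begin 1 base later than stated, because the names do not say whether their starts count from 0 or 1.

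The motifs searched were CATCTG and CAGCTG (E-boxes bound by basic helix-loop-helix factors), GGTGTG (T-box), ACAAAG (Sox), TAATTA (homeobox), GGAATG (TEAD), TGGGAA (Rbpj), TGANTCA (AP-1) and TTGGCA (a nuclear factor I site). The Gm51750 stretch held 1 CATCTG, found in 15.4% of the same stretch of all 32851 RefSeq promoters. The Gm52857 stretch held 1 CATCTG and 3 ACAAAG, with at least 1 match in 10.8% and 11.3% of promoters. Sox6 held 2 CATCTG, 1 ACAAAG and 1 GGAATG (12.6%, 13.5% and 10.5% of promoters), the Sox and TEAD matches side by side. Arvcf held 1 CATCTG and 4 ACAAAG (15.4% and 16.8%). CATCTG and ACAAAG thus occurred in promoter elements higher in IPC and in promoter elements higher in NSC.

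The IPC class was the more active in IPC, and the NSC class the more active in NSC. The IPC class averaged 0.37 above Scrambled in IPC and 0.16 in NSC, a difference of 0.21 ± 0.03 (SE over elements, not animals, here and below). The NSC class averaged 0.17 in IPC and 0.36 in NSC, a difference of -0.19 ± 0.02. Of the IPC-class elements 54.3% were higher in IPC, and of the NSC-class elements 42.3%, beside 47.2% of Scrambled controls. Both shifts were small against the spread of single elements. The quartiles of the difference were -0.68 and 1.04 in the IPC class and -1.03 and 0.57 in the NSC class. The gap between the classes within a column does not depend on how the columns were centred. The NSC class minus the IPC class was -0.20 ± 0.03 in the IPC column and 0.20 ± 0.02 in the NSC column, a change of -0.40 ± 0.03.

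The remaining classes leaned less to either cell type. Mature elements stood near the Scrambled level in both, at 0.07 in IPC and -0.02 in NSC, with a mean difference of 0.09 ± 0.03 and a median of 0.00. E14 elements had the highest class mean in IPC, 0.43, and averaged 0.31 in NSC. Their difference was 0.12 ± 0.05, and it became -0.02 when each column was divided by its Scrambled SD and brought back to the mean SD of both, so its direction is not settled. Shadow elements averaged 0.19 in IPC and 0.10 in NSC, a difference of 0.09 ± 0.04, which became 0.03 ± 0.04 under that scaling. Over all 10517 designed elements the means were 0.22 in IPC and 0.18 in NSC, a difference of 0.05 ± 0.01 with a median of -0.02.

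Classes also differed in how many elements stood high in a column. Above the 97.5th percentile of Scrambled activity (1.99 in IPC, 1.32 in NSC) lay 720 designed elements in IPC, 6.85% of those tested, and 686 in NSC, 6.52%. For the IPC class these shares were 8.75% in IPC and 4.88% in NSC, and for the NSC class 5.68% in IPC and 10.2% in NSC. The E14 class reached 10.1% in IPC and 10.7% in NSC, and the Mature class 5.39% in IPC and 3.31% in NSC. In the same elements activity in one cell type said little of the other. The limit was passed in both columns by 49 designed elements (0.47%) and no Scrambled control, and 22 of the 49 were NSC-class elements. Neither that count, its split by class nor the absence of controls was set against the number that unrelated columns would give, so no excess is claimed. Spearman's rho between the columns, a description over elements that share the plasmid library, was 0.10 over the 10517 designed elements, 0.05 over the E14 class and 0.03 over Scrambled controls. Within 1 cell type, rho of E17 with the other ages was 0.06 to 0.12 in IPC and 0.06 to 0.13 in NSC over designed elements. Over all designed elements a low rho was thus not particular to the pair of cell types. In the E14 class it was 0.14 to 0.26 in IPC and 0.08 to 0.21 in NSC.

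The asc, desc and unc labels inside the names separated NSC-class elements in the NSC column. There asc elements averaged 0.47, unc elements 0.42 and desc elements 0.19, and asc minus desc was 0.28 ± 0.03. In the IPC column the same sets averaged 0.18, 0.25 and 0.08, and asc minus desc was 0.10 ± 0.05. The difference IPC minus NSC was therefore lowest for asc, at -0.28 ± 0.04 over 1121 elements, and -0.10 ± 0.04 for 1049 desc elements. For unc elements it was -0.17 ± 0.04. Of the NSC-class asc elements 27 lay above the upper limit and 47 below the lower one, and of the desc elements 44 above and 45 below. Over all designed elements 4.6% lay above and 3.28% below. The asc set stood at 2.41% above and 4.19% below, and the desc set at 4.19% above and 4.29% below.

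Within the IPC class the largest lean to IPC was found in desc elements. Asc minus desc of IPC minus NSC was -0.09 ± 0.07, so asc and desc were not clearly apart, and desc minus unc was 0.15 ± 0.06. The desc elements averaged 0.37 in IPC and 0.08 in NSC, a difference of 0.29 ± 0.04. Of 1112 such elements 64 (5.76%) lay above the upper limit and 13 (1.17%) below the lower one. Over all designed elements these shares were 4.6% and 3.28%. The asc elements (0.39 in IPC, 0.18 in NSC) differed by 0.20 ± 0.05, and unc elements (0.36 in IPC, 0.22 in NSC) by 0.14 ± 0.04. Scaled by the Scrambled SD, these differences became 0.21 ± 0.04 for desc, 0.10 ± 0.05 for asc and 0.03 ± 0.04 for unc elements. The labels hardly moved activity in IPC itself, where asc minus desc was 0.02 ± 0.06, while in NSC it was 0.10 ± 0.03. Mature asc elements had a mean difference of 0.04 ± 0.09 but a median of -0.20. In that set 23 of 311 elements (7.40%, 95% Wilson interval 4.98 to 10.9) lay above the upper limit. Below the lower one lay 12 (3.86%), near the share over all designed elements.

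The authors' deposited table carries an adjusted p per element and column, the upper tail of the element's distance from the Scrambled median, and it compares no cell types with each other. At 0.05 the authors' deposited table called 1969 designed elements in IPC (18.7%) and 1377 in NSC (13.1%). It also called 101 Scrambled controls in IPC (10.2%) and 60 in NSC (6.07%). The threshold is on a p adjusted by Benjamini-Hochberg, which names no share of controls to be called. Both columns called 281 designed elements in the authors' deposited table, 14.3% of the IPC calls and 20.4% of the NSC calls. These shares lie only a little over the 13.1% of all designed elements called in NSC and the 18.7% called in IPC. For the IPC class the authors' deposited table called 22.5% in IPC and 10.6% in NSC, and for the NSC class 16.5% in IPC and 19.4% in NSC. The E14 class had 25.9% called in IPC and 20% in NSC in the authors' deposited table, the highest class shares of both columns.

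A larger share of designed elements than of controls lay beyond the Scrambled limits of the difference, on the lower side by little. Of the 10517 designed elements 484 (4.6%, 95% Wilson interval 4.22 to 5.02) lay above the upper limit and 345 (3.28%, 2.96 to 3.64) below the lower one. By construction 25 of 988 Scrambled controls (2.53%, 1.72 to 3.71) lay on either side. The share of designed elements below lies inside that interval of the controls, and the share above lies outside it. With limits on the difference of the authors' MAD scores, 592 lay above and 551 below, so the surplus above over below depends on the scale. The intervals cover the sampling of elements only and leave out the uncertainty of the limits. The nearest element outside the upper limit had 2.4068 and the nearest inside 2.4046, and at the lower limit the values were -2.3042 outside and -2.3036 inside. The IPC class had 154 elements above (5.22%, 4.48 to 6.08) and 71 below (2.41%, 1.91 to 3.03). The NSC class had 98 above (3.20%, 2.63 to 3.88) and 131 below (4.27%, 3.61 to 5.05). Mature elements numbered 138 above (5.13%) and 88 below (3.27%), and Shadow elements 41 above (4.60%) and 26 below (2.92%). Single Scrambled controls reached differences as far out as -4.15 and 6.38. Of the 10517 designed elements 8 lay above the highest of the 988 controls and 17 below the lowest one. With so many more designed elements than controls, a few outside that range are no result by themselves. The counts were not set against the number to be met in elements like the controls.

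The difference rose with the level of activity, in controls as in designed elements. Level and difference come from the same 2 columns, and where the IPC column has the wider spread such a rise arises by construction. Among elements whose mean of both columns was up to the Scrambled median, the difference averaged -0.48 in 4064 designed elements and -0.40 in 494 Scrambled controls. Over the 97.5th percentile of that mean it averaged 1.44 in 821 designed elements and 1.78 in 25 Scrambled controls. Of those 821 elements 212 lay above the upper limit and 21 below the lower one. In this highest band the NSC class averaged 0.90, the IPC class 1.73, the Mature class 2.07, the E14 class 1.25 and the Shadow class 1.48. The rise is therefore no separate result, and the part of the wider IPC column in the single-element differences was not tested.

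The most extreme elements of the other classes can be named only as in the table. The largest difference of all was that of Mature.seqs_unc.Mature_neurons_1577, with 7.11 in IPC and -3.11 in NSC, a difference of 10.2. It had a value in both cell types at E14 alone among the other ages, where the difference was 2.36. IPC.seqs_unc.IPC_717 had 7.39 in IPC and -1.10 in NSC, a difference of 8.49, and stood at -0.70, 3.02 and 3.13 at E13, E14 and E15. In the other direction NSC.seqs_asc.NSC_4403 had -2.53 in IPC and 4.25 in NSC, a difference of -6.78, with -2.48, 0.25, -4.32 and 1.90 at E13 to E16. IPC.seqs_unc.IPC_1234 had a difference of -5.69 and lacked a pair of values at each other age. Missing values were more common among elements beyond the limits. Values at all 4 other ages existed for 80.8% of the elements above and 80.3% of those below, against 94% of all designed elements.

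Elements chosen at E17 were followed in the columns of E13 to E16, which come from other embryos and were not used to choose them. Of the 484 elements above the upper limit, 52.5%, 49.9%, 54.2% and 51.0% of those with values were also higher in IPC at E13, E14, E15 and E16. Over all designed elements these shares were 53.0%, 50.8%, 48.2% and 47.4%. Of the 345 elements below the lower limit, 51.9%, 56.5%, 52.9% and 52.9% were also lower in IPC than in NSC, against 47.0%, 49.2%, 51.8% and 52.6% of all designed elements. The 95% Wilson interval of the chosen elements held the share of all elements in 6 of these 8 cases. It lay above it for elements above the limit at E15 (49.6% to 58.8%) and for elements below the limit at E14 (51.2% to 61.7%). The chosen elements passed the same-side limit of another age more often than all designed elements did. Elements above the E17 limit passed the same-side Scrambled limit in 7.76%, 6.82%, 7.33% and 7.86% at E13 to E16, against 3.62%, 3.71%, 2.79% and 4.47% of all designed elements. For elements below it the shares were 8.28%, 5.03%, 9.74% and 10.4%, against 2.83%, 3.56%, 3.55% and 4.03%. These were 17 to 34 elements at each age and side. Passing the opposite limit was not counted, so these shares do not show that the direction recurred. Scrambled controls chosen the same way passed the same-side limit in 8.33%, 0%, 0% and 0% above at E13 to E16. Below, they passed it in 4.35%, 8%, 12.5% and 0%, over 22 to 25 controls at each age and side.

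Recurrence was also followed within the E14 class, where 53 of 920 elements lay above the limit (5.76%) and 29 below (3.15%). Of the 53 above, 50%, 58.5%, 59.6% and 68.8% were higher in IPC at E13 to E16, beside 54.7%, 53.8%, 53.0% and 51.4% of the whole class. The 95% Wilson interval at E16 was 54.7% to 80.1%, while the intervals at E13, E14 and E15 held the share of the whole class. Among 46 such elements with values at every age, 10 (21.7%) were higher in IPC at all 4, against 12.8% of the whole class. Below the limit 5 of 25 (20%) were higher in NSC at all 4, against 7.65% of the whole class. Rank correlations of the difference at E17 with that at E13, E14, E15 and E16 were 0.08, 0.18, 0.18 and 0.14 in the E14 class (902 to 920 elements). Over all designed elements they lay between 0.04 and 0.05, and over Scrambled controls between 0.00 and 0.06. They are descriptions over elements of the same plasmid library.

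The calls of single columns were followed in the same way. In the E14 class, the authors' deposited table called 39.0%, 37.0%, 39.1% and 23.7% of the E17 IPC calls again in IPC at E13, E14, E15 and E16. Of the E14 elements not called at E17, the authors' deposited table called 25.4%, 19.1%, 17.7% and 20.5% at those ages. In Mature elements the authors' deposited table called 14.7%, 11.7%, 17.7% and 14.7% of the E17 IPC calls again at E13 to E16, and 17.7%, 8.15%, 13.5% and 14.9% of the rest. For the NSC class in NSC, the authors' deposited table called 19.7%, 29.1%, 18.3% and 30.5% of the E17 calls again at E13 to E16, against 15.3%, 15.8%, 14.3% and 20.1% of the rest. Of Scrambled controls called in NSC at E17, the authors' deposited table called 15.3%, 16.7%, 11.7% and 16.7% again at E13 to E16. Of the other controls it called 13.2%, 9.29%, 7.91% and 12.5%. In IPC the authors' deposited table called 16%, 8.91%, 7.92% and 16.8% of such controls again, and 15.6%, 6.21%, 11.5% and 11.9% of the rest. These were 59 or 60 controls called in NSC and 100 or 101 in IPC.

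The class differences of E17 were compared with those of the earlier ages. For the IPC class IPC minus NSC was 0.19, 0.08, 0.06, 0.07 and 0.21 at E13 to E17, each with an SE of 0.02 to 0.04. For the NSC class it was -0.04, -0.26, -0.25, -0.23 and -0.19. By its mean, the IPC class was thus higher in IPC at every age and the NSC class higher in NSC at every age. However, the NSC class at E13 had a mean of -0.04 ± 0.04 and a median of 0.02. The medians of the IPC class at E15 and E16 were only 0.02 and 0.0002. IPC-class desc elements had 0.16, 0.02, 0.09, 0.08 and 0.29, and E17 was their highest value. NSC-class asc elements had 0.02, -0.16, -0.28, -0.26 and -0.28. The E14 class had 0.19, 0.12, 0.04, 0.10 and 0.12.

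E14 elements could be placed next to genes, and those beyond the limits were described one by one. Above the upper limit lay 53 (95% Wilson interval 4.43% to 7.46% of the class) and below the lower one 29 (2.20% to 4.49%). Of the 53 above, 35 (66.0%) fell inside a protein-coding gene's span, of the 29 below 13 (44.8%), and of all E14 elements 522 (56.7%). The exon or intron and the strand of these genes were not used here. The authors' deposited table called 50 of the 53 in IPC and none in NSC, and 27 of the 29 in NSC and none in IPC. Over the whole E14 class the authors' deposited table called 238 of 920 in IPC and 184 in NSC. The same values set the limits, so this split is a description of the choice. A gene named below is the one whose span holds the element, or else the nearest, and whether the element acts on it was not measured.

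The largest E14 difference belonged to an element within Ptk2, which encodes focal adhesion kinase (chr15:73360346-73360611). Its deposited statistic was 24.3 in IPC and 0.870 in NSC, which gives activities of 5.95 in IPC and -1.23 in NSC, a difference of 7.18. The differences at E13, E14, E15 and E16 were 1.34, 3.54, 4.83 and -2.57, so 3 of 4 other ages had the same direction. It was the single one of 920 E14 elements outside the whole range of the 988 Scrambled controls, and no E14 element lay below that range. Over all 10517 designed elements 8 lay above the range and 17 below it. An element within Mmp24, a membrane-bound matrix metalloproteinase, had 4.15 in IPC and -0.74 in NSC, a difference of 4.89 (chr2:155788662-155788927). Its activity in IPC was 3.64, 1.66, 1.26 and 2.31 at E13 to E16, and in NSC -1.46, -0.07, 0.68 and -0.25. It stood higher in IPC at all 5 ages. An element within Msi2, the gene of an RNA-binding protein of progenitor cells, had 3.66 in IPC and -0.04 in NSC (chr11:88354785-88355050). Its differences at E13 to E16 were 0.83, 1.63, 2.47 and 0.88, again of 1 direction.

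Other elements with large differences towards IPC were less steady. One 21.9 kb from Pcdh8, a protocadherin, had 3.82 in IPC and -0.51 in NSC and differed by 3.76, 2.27, 1.38 and -2.39 at E13 to E16. One 3.93 kb from Srrm4, a neural splicing regulator, had 3.88 in IPC and -0.33 in NSC and differed by 1.80, 1.68, -2.85 and 6.64. One 12.2 kb from Meis2, a homeobox factor, had 4.77 in IPC and 0.64 in NSC but only -0.18, -3.05, 0.05 and -2.81 at the other ages. These 3 elements show that a high value in the E17 column can stand with either direction at the other ages. The rest of the 12 largest differences lay within Nav2 (4.16), Mfsd13b (3.94), Mgat5b (3.69) and Csrp1 (3.60), 341 kb from Rragc (4.16) and 340.2 kb from Cntn5 (3.74). Of the 12, only the elements at Mmp24 and Msi2 were higher in IPC at all 4 other ages. An element within Eepd1 (3.71 in IPC, 0.36 in NSC) was also among the 8 highest E14 activities in IPC.

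In the opposite direction the largest difference was that of an element within Zfp800, a zinc finger gene (chr6:28396867-28397132), with -1.85 in IPC and 2.20 in NSC, a difference of -4.05. An element within Cc2d2a, which encodes a protein of the ciliary transition zone, was the most active E14 element in NSC, with -0.73 in IPC and 3.15 in NSC (chr5:43665255-43665520). Its differences at E13 to E16 were 4.90, -1.38, 0.09 and -2.55, in either direction. An element 0.126 kb from Dcakd, which encodes a dephospho-CoA kinase domain protein, had -1.75 in IPC and 1.97 in NSC (chr11:102993656-102993921). Its activity in IPC was -0.59, 0.25, -0.70 and -1.40 at E13 to E16, and in NSC -0.10, 0.75, 3.60 and 2.25. It stood higher in NSC at all 5 ages, most from E15 on.

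Further elements higher in NSC lay within Cdc14a (-3.60), a phosphatase gene, within Dst (-3.54), the gene of a cytoskeletal linker, and within Robo2 (-3.46), a receptor for Slit proteins. Others lay within Itsn1 (-3.29), 5.66 kb from Sfr1 (-3.86), 15.7 kb from Dcdc5 (-3.44), 25.7 kb from Gm4832 (-3.38), 11.3 kb from Tanc1 (-3.32) and 104 kb from Nebl (-3.11). Of these 12 largest, the elements at Dcakd and Nebl were higher in NSC at all 4 other ages. The Gm4832 element was too, at the 3 ages with values. The highest E14 activities in NSC also included elements within Tenm3, a teneurin of synaptic partner matching, with 0.32 in IPC and 2.82 in NSC, and near Kcnk5 (-0.15 in IPC, 2.80 in NSC) and Slc36a4 (0.09 in IPC, 2.70 in NSC). The element within Ak3, a mitochondrial adenylate kinase, had 1.70 in IPC and 2.19 in NSC, above the single-column limit in NSC and under it in IPC.

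The E14 elements beyond a limit with 1 direction at all 5 ages include some outside the named largest, given here after their values were seen. An element within Fbrsl1 had 4.80, 2.80, 2.20, 1.82 and 3.04 in IPC at E13 to E17, and 0.17, 0.63, 0.43, 0.92 and -0.05 in NSC. It was the more active in IPC at each age by 0.90 to 4.63. An element within Shroom3, an organiser of apical constriction, differed by 3.29, 2.67, 1.48, 0.10 and 2.52 at E13 to E17. An element 75.7 kb from Dusp4, a dual-specificity phosphatase gene, differed by 3.97, 1.88, 0.98, 1.86 and 3.13. In the other direction an element 31.3 kb from Ercc6l2 differed by -6.40, -1.19, -1.39, -1.88 and -2.41, and one 59.4 kb from Irs2, an insulin receptor substrate, by -0.51, -0.40, -0.26, -0.93 and -2.32. The Dgki element, whose Gm52857 stretch is printed above, differed by -3.98, -0.16, -0.73, -0.87 and -2.53.

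E14 elements at genes of 4 lists were set beside all 920 E14 elements, of which 52.3% were higher in IPC, 5.76% above the upper limit and 3.15% below the lower one. The lists are small, so single elements move their shares. Of the neural stem cell list 12 of 23 genes had an E14 element, 19 elements in all. Of these 11 were higher in IPC, 2 lay above the upper limit and none below the lower one, with a median difference of 0.33 against 0.07 over all 920. The 2 were 215 kb from Sox2, a factor that maintains neural stem cells (2.58 in IPC, -0.99 in NSC), and 63.8 kb from Hes1, a Notch effector (2.18 in IPC, -0.28 in NSC). At E13 to E16 the Sox2 element differed by 2.55, -1.99, 1.33 and 2.40, and the Hes1 element by -0.95, -3.24, 0.88 and 1.35. Of the other Sox2 elements, that at 90.8 kb had -0.97 in IPC and 0.51 in NSC at E17. That at 426 kb differed by 0.74. The lowest difference of the list was -2.01, 42.9 kb from Hopx. Pax6 itself held 5 elements within its span, with differences of 2.21, 1.58, 0.37 and 0.20 in 4 of them. The fifth, at chr2:105686827-105687092, had 1.01 in IPC and 2.01 in NSC.

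The intermediate progenitor list had 3 elements for 3 of 14 genes, none beyond a limit. They lay 4.60 kb from Mfng, a glycosyltransferase gene that modifies Notch (1.24), 1.74 kb from Eomes, the gene of Tbr2 (-1.01), and 265 kb from Gadd45g, a growth arrest gene (-1.71). The Eomes element had -0.54 in IPC and 0.47 in NSC at E17 and was higher in IPC by 0.70, 2.04, 0.82 and 0.14 at E13 to E16. Of 18 elements at 10 of 27 neuronal genes, 11 were higher in IPC, with a median of 0.32. The single one above the limit lay 327 kb from Sox11, a factor of newborn neurons (2.20 in IPC, -0.61 in NSC), and was higher in IPC at all 5 ages. An element 7.93 kb from Neurod2, a neuronal basic helix-loop-helix factor, differed by 1.42, 1.96, 1.46, 1.23 and 1.06 at E13 to E17. That last value lies well inside the limits. Another element, 6.63 kb from Neurod2, differed by 0.49, -0.15, 0.09, -0.89 and -0.45 at E13 to E17.

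The list of temporal and gliogenic genes had 14 elements at 8 of 20 genes. Of these 5 were higher in IPC, none lay above the upper limit and 1 below the lower one, and the median was -0.21. The 1 below lay within Zbtb20, a zinc finger factor of late cortical progenitors, with -1.86 in IPC and 0.57 in NSC. At E13 to E16 it was higher in IPC, by 0.71, 0.13, 0.15 and 1.71. Another element within Zbtb20 had 0.74 in IPC and -1.62 in NSC, so elements of 1 gene stood on opposite sides. An element within Prdm16, a regulator of cortical stem cells, had 3.11 in IPC and 1.28 in NSC, above the single-column limit in IPC and just under it in NSC. The 4 elements at Nfia, a nuclear factor I gene of gliogenesis, differed by 0.31, -0.16, -0.77 and -1.57.

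Most Shadow elements share the coordinates of an E14 element, and 823 of 844 such pairs had values in both columns. E14 elements were the more active of the pair in both cell types. In IPC they averaged 0.42 and their Shadow elements 0.18, a difference of 0.24 ± 0.06 (SE over pairs), with the E14 element higher in 57.0% of pairs. In NSC they averaged 0.32 and Shadow 0.09, a difference of 0.22 ± 0.04, with the E14 element higher in 59.5%. The excess hardly differed between cell types (0.02 ± 0.07). Within pairs there was little order: rho between E14 and Shadow activity was 0.01 in IPC and -0.05 in NSC over 823 pairs. Where the E14 element lay above the upper limit, 21 of 46 Shadow partners were higher in IPC, 5 lay above it and 1 below the lower one, with a median of -0.09. Where it lay below the lower limit, 13 of 25 partners were higher in IPC, 2 lay above the upper limit and 1 below the lower one. Of all 891 Shadow elements 51.9% were higher in IPC, 4.6% above and 2.92% below.

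Single pairs showed the same range. The Shadow partner of the Ptk2 element had -0.41 in IPC and -0.62 in NSC, near the Scrambled level in both. That of the Mmp24 element had -1.10 in IPC and 0.81 in NSC, the opposite direction. The partner of the Mfsd13b element had 4.84 in IPC and 0.43 in NSC, a difference of 4.41 beside 3.94 for the E14 element itself. The partner of the Srrm4 element had 3.08 in IPC and 0.85 in NSC, a difference of 2.23. Towards NSC, the partner of the Sfr1 element had 0.17 in IPC and 2.46 in NSC, and that of the Robo2 element 1.79 in IPC and -0.67 in NSC.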

How the data were processed

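A massively parallel reporter assay was read in DNA and RNA libraries of sorted IPC and NSC at E17, with 2 biological samples per cell type, grouped by the labels. The tool cutadapt (its version not given) and the build mm10 appear in the submitters' processing notes. Aligner, barcode counting and the tool behind the values: not given in the sources used here.

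Per the file headers, each cell type and age has 3 columns. The first, the authors' statistic, is a never negative score without a stated unit. The authors' MAD score was recomputed as distance from the Scrambled median over the scaled median absolute deviation. The authors' deposited p-value was recomputed as its upper-tail normal p after Benjamini-Hochberg adjustment (largest difference 5.44e-15 in the E17 columns). Replicates were pooled by the authors, so no test across samples was made.

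Activity used a pseudocount of 0.1, so differences of low elements are understated. Limits leave 2.5% of Scrambled controls on either side. Genes come from the 21900 protein-coding spans of GRCm38.p6. The plan to count motifs and base composition over E14 elements needed a genome not used here, and promoter windows took its place, added after the files had been seen. Named elements were the 12 largest E14 differences each way beyond the limits, the 8 highest in each column, list elements beyond the limits, and the 3 largest each way of other classes, not all of which are printed. Elements, classes and gene lists were chosen with earlier results of these data known. Alternatives were other pseudocounts, scalings, centring, filters, limits, medians and thresholds. The script was tested on simulated data. Python 3.11.15, pandas 2.3.3, NumPy 2.4.6 and SciPy 1.17.1 were used.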

Additional observations from a re-analysis of the deposited data

How the results depend on the processing

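Of 257 alternative values, 209 stayed within 1.5 times the main count or the 95% interval of the main value, 47 moved and 1 that had stood clear of 0 reversed. A further 5 changed sign from a main value whose interval held 0. By medians Mature asc elements had -0.20, Mature desc -0.04 and their difference -0.16, and with values in all 10 columns Mature asc had -0.04 and asc minus desc -0.07. No value moved beyond those bounds with a pseudocount of 0.02, with centring on all designed elements, with elements valued in all 10 columns, or with low values left out (32 values each). By construction, centring leaves every count, class gap and label difference as it was and shifts the other values by a constant. Leaving out low values kept 10516 of 10517 designed elements. Neither of these alternatives could therefore move much, and their values are counted in the 209 all the same. With each column divided by its Scrambled SD, IPC minus NSC was -0.30 for the NSC class, 0.12 for the IPC class and -0.020 for the E14 class, the reversal, and the NSC class minus the IPC class in NSC was 0.25. That scaling narrows the IPC column and widens the NSC column by its construction: the median of designed elements became 0.11 in IPC (0.14 unscaled) and 0.20 in NSC (0.16 unscaled). With a pseudocount of 0.5 the NSC class had -0.14, the gap between the classes in NSC was 0.16 and its change -0.32. By medians the NSC class had -0.25, the IPC class 0.14 and the Mature class 0.00095. With limits at 0.5% of controls, 142 designed elements lay above and 76 below. By class these were 26 and 22 (NSC), 52 and 20 (IPC), 37 and 15 (Mature), 13 and 11 (E14), and 14 and 8 (Shadow). With limits on the authors' MAD scores, 592 designed elements lay above (74 of them E14), and 551 lay below (251 NSC, 113 IPC, 75 E14 and 41 Shadow). Fewer calls follow from stricter limits by construction, and the cause of the others was not tested. At a threshold of 0.01 the authors' deposited table called 157 designed elements in both columns. Asking for the same-side limit at E13 to E16 in place of the same direction gave 7.76%, 6.82%, 7.33% and 7.86% for elements above and 8.28%, 5.03%, 9.74% and 10.4% for those below. Chosen at the 0.5% limits, 40.5% of elements above kept their direction at E16. Of those below, 41.4%, 47.2% and 60% kept it at E13, E14 and E16. No paired analysis was possible because the columns are pooled over biological samples and carry no replicate number, and for the same reason no sample could be left out. The depth behind each value is unknown, so what it limits cannot be stated.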
